A study of Mus musculus with 15 samples.

Results

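Fos, Fosl2, Jun and Junb are 4 genes of the AP-1 family, and they were chosen by name, with every transcript of these genes in the data taken as a member. Earlier results of these data were known at that point, so counts of members set against all transcripts are a description. The annotation gives these genes 10 transcripts in all, and 4 of these, 1 for each gene, were among the 10370 transcripts measured. Total RNA came from the cortex of male C57BL/6 mice (C57Bl/6J in the study's methods) with no other genotype given, and the labels state an age of 12 weeks without saying at which step it applies. The 8 HF-HI mice received high-frequency head impact, in which anesthetized animals are struck repeatedly on consecutive days, and the 7 Sham mice had the same handling and isoflurane anesthesia with no impact. Both groups were collected 1 month later, and the comparison asks whether these transcripts still differed at that time. Nothing in the labels says whether animals shared a cage or litter, so p-values measure the spread between these libraries.

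AP-1 is a pair of proteins joined through a leucine zipper that binds DNA and switches genes on or off. Fos-side proteins (Fos and its relative Fosl2, also called Fra-2) cannot pair with themselves and need a Jun-side partner, whereas Jun proteins can pair with each other as well. In neurons, Fos and Junb are immediate early genes: synaptic activity, through calcium and MAP kinases, induces their mRNA within minutes without new protein synthesis, and the mRNA is then quickly degraded. Fos mRNA is widely used as a mark of recently active neurons. Jun is also phosphorylated by the JNK kinases under stress and after axon injury, and Fosl2 is induced more slowly and lasts longer than Fos.

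The sequences upstream of Fos, Junb and Jun are shown because they are where the activity-dependent factors of neurons bind in general. Fos, Junb and also Fosl2 were called higher in the comparison below and Jun was not. Whether the letters shown have any part in this was not tested. Each is 150 bases long, is read 5′ to 3′ on the strand of the gene, ends at the base before the start of the measured transcript, and comes from RefSeq with build GRCm38.p6. Capitals mark the TATA box (TATAAA) and the cAMP response element in its shorter form (TGACG) in Fos and Junb. In Jun they mark the 8-base form with a free base (TGACNTCA), whose letters resemble both that element and the AP-1 site.
Fos, chr12:85473740-85473889, plus strand: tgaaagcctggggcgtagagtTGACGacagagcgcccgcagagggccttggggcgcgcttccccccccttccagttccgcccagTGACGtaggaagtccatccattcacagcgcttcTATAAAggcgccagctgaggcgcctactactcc
Junb, chr8:84978719-84978868, minus strand: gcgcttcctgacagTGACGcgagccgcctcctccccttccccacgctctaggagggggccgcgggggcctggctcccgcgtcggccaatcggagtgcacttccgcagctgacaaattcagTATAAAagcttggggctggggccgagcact
Jun, chr4:95052223-95052372, minus strand: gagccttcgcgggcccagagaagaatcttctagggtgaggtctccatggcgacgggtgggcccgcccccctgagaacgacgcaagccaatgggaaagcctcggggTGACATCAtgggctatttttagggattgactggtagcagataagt

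Fos held TGACG at 129 and at 66 bases before its start and a TATA box at 33, and Junb held TGACG at 136, a CCAAT box at 66 and a TATA box at 30. Jun had no TATA box in this window and held TGACATCA at 45 bases before its start, with a MEF2 site at 33 and a CCAAT box at 65. Letters were searched on both strands in the RefSeq promoter windows, which run from 250 bases before to 50 after a gene's start. TGACG stood in 20.8% of 32851 such windows, TATAAA in 13.6%, TGACNTCA in 8.83%, CCAAT in 37.4% and the MEF2 site, searched by name, in 3.19%. The full palindrome TGACGTCA, which contains TGACG, was in 1.79% of windows and in none of the 4 member windows. The AP-1 site itself (TGANTCA, 7.81% of windows) and the CArG box bound by SRF (1.63%) were also not among the letters of the 4 windows. The GC box (GGGCGG, 35.7% of windows) was in the windows of Jun, Fosl2 and Fos. The RefSeq start of Fosl2 lies 671 bases downstream of the start of its measured transcript, so its window is not shown. Letters more than 250 bases before a start were not searched. A site not found in a window, such as the CArG box, may therefore still lie farther upstream of the gene. These matches describe letters, and binding was not measured.

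Of the 4 members, 3 were higher in HF-HI at a limma unadjusted p under 0.05, and the fourth, Jun, was not. Fos was 1.70-fold higher, Junb 1.38-fold and Fosl2 1.27-fold, while Jun stood at 1.02-fold. In the whole data set 8.83% of transcripts passed the same bar in either direction and 4.94% passed it as higher in HF-HI. None of the 10370 transcripts had a limma Benjamini-Hochberg adjusted p under 0.1 (0.0%), and the smallest was 0.206, so no member passed the adjusted threshold. Over the 4 members the median VSD difference was 0.13 and the median log2 ratio 0.40, against -0.0013 and -0.0019 respectively over all transcripts. VSD is the authors' variance-stabilized log2 scale. It compresses low values, and a doubling from 200 normalized counts moves it by 0.27. Levels below are therefore in normalized counts, which are reads divided by the library's size factor, and log2 ratios are of group means of these. In whole cortex, more cells with a transcript and more of it per cell cannot be told apart.

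Fos (ENSMUST00000021674) encodes the classic activity-induced partner of AP-1. Its 4 exons and 2108 bases lie on the plus strand of chromosome 12, 85473890 to 85477273 in GRCm38. Fos normalized counts in Sham libraries 1 to 7 were 242, 58.1, 249, 337, 233, 235 and 294. In HF-HI libraries 1 to 8 they were 580, 343, 351, 427, 408, 434, 373 and 296. The Sham median was exceeded by all 8 HF-HI libraries and the highest Sham library by 7 of them, and the groups overlapped only through Sham 4, which exceeded HF-HI 8. Over all transcripts, 3.8% had all 8 HF-HI libraries above the Sham median and 0.54% had 7 or 8 above every Sham library. The means were 236 ± 87.1 (SD, n = 7) and 402 ± 85.8 (SD, n = 8), a log2 ratio of 0.77. The VSD difference was 0.23 with an SE of 0.06 and a 95% interval of 0.09 to 0.36 (limma unadjusted p = 0.00233, Benjamini-Hochberg adjusted p = 0.338). The exact two-sided permutation test, with 6435 arrangements of the libraries, gave p = 0.000777 for the VSD difference. Fos ranked 70 of all transcripts by unadjusted p.

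Sham 2, at 58.1 normalized counts from 63 reads, was far below the other Sham libraries, whose lowest value was 233. Its 95% Poisson interval of 44.6 to 74.3, which covers counting error only, did not reach them. Without Sham 2 the Fos difference was 0.17 in VSD instead of 0.23 and kept an unadjusted p under 0.05.

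Fosl2 (ENSMUST00000031017) encodes the slower Fos-side partner. It has 4 exons and 6537 bases on the plus strand of chromosome 5, 32135801 to 32157842. Sham libraries 1 to 7 held 289, 243, 296, 413, 464, 304 and 304 normalized counts of Fosl2. HF-HI libraries 1 to 8 held 482, 379, 428, 395, 358, 529.9, 417 and 358. The Sham median of 304 was exceeded by all 8 HF-HI libraries, but Sham 4 and Sham 5 reached into the HF-HI range and only 2 HF-HI libraries lay above every Sham library. The means were 330.5 ± 78.1 and 418 ± 60.7, a log2 ratio of 0.34. The VSD difference of 0.11 had an SE of 0.04 and a 95% interval of 0.02 to 0.19 (limma unadjusted p = 0.0161, Benjamini-Hochberg adjusted p = 0.461; exact permutation p = 0.0256).

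**Figure D1:**
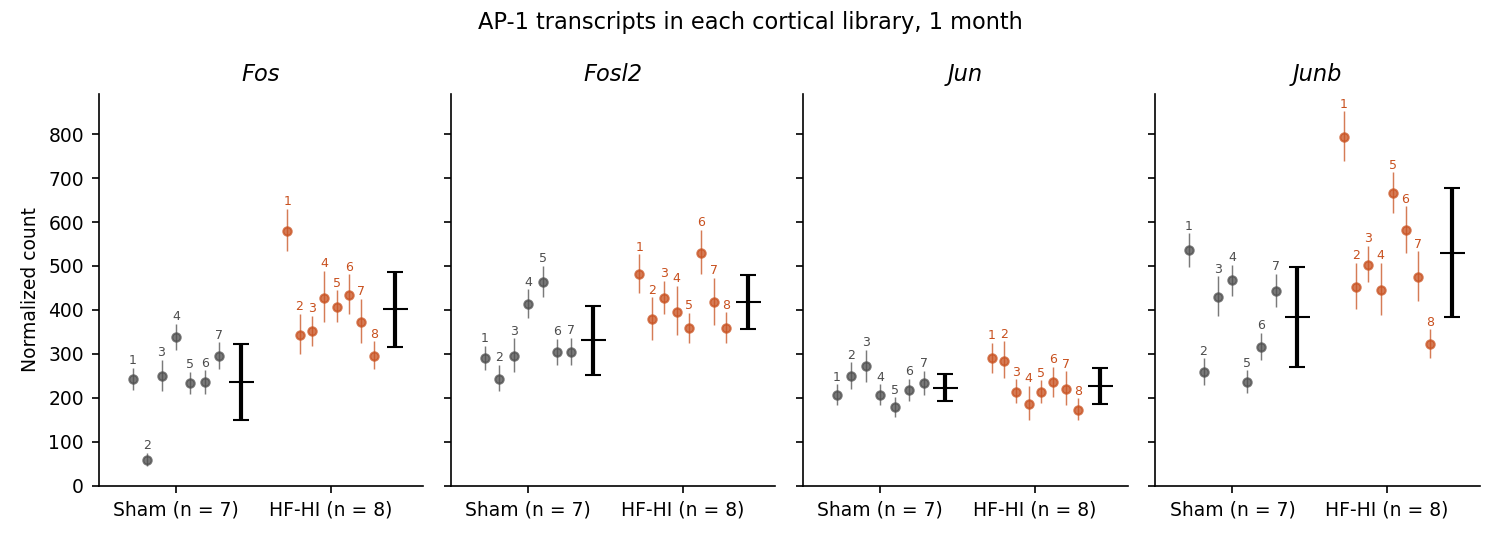
Normalized counts (y axis) of the 4 AP-1 transcripts in each of 7 Sham and 8 HF-HI libraries (points, numbered by library, with 95% Poisson intervals for counting error); black bars give the group mean and SD. All 8 HF-HI points of Fos exceed the Sham median of 242, whereas Jun points overlap widely, with Sham between 178 and 271 and HF-HI between 173 and 289.6.

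Junb (ENSMUST00000064922) encodes a Jun-side partner that is a weaker activator than Jun and is induced with Fos. It is a single exon of 1809 bases on the minus strand of chromosome 8, 84976910 to 84978718. Junb normalized counts in Sham 1 to 7 were 536, 258, 429, 467, 236, 316 and 443, and in HF-HI 1 to 8 they were 795, 452, 503, 445, 666, 582, 474 and 322. HF-HI 8 was the only HF-HI library below the Sham median of 429, and 3 HF-HI libraries lay above every Sham library. The groups therefore overlapped over much of their range. The means were 384 ± 114 and 529.9 ± 147, a log2 ratio of 0.47. The VSD difference was 0.16, SE 0.07, 95% interval 0.01 to 0.30 (limma unadjusted p = 0.0343, Benjamini-Hochberg adjusted p = 0.532; exact permutation p = 0.0493). Leaving out any 1 of Sham 2, Sham 5, Sham 6, HF-HI 1, HF-HI 5 or HF-HI 6 moved the unadjusted p of Junb to between 0.0566 and 0.0808, so its call rested on these libraries.

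Jun (ENSMUST00000107094), the founding Jun-side partner and the target of the JNK kinases, is a single exon of 3189 bases on the minus strand of chromosome 4, 95049034 to 95052222. An antisense gene, Junos, overlaps it on the plus strand. Whether counting used strand is not given in the sources used here, so reads of Jun and Junos may not be separate. Sham 1 to 7 held 206, 249, 271, 206, 178, 217 and 233 normalized counts of Jun. HF-HI 1 to 8 held 289.6, 285, 214, 186, 213, 235, 219 and 173. Both medians were 217, and 4 of 8 HF-HI libraries lay on each side of the Sham median. The means were 223 ± 30.9 and 227 ± 41.9, a log2 ratio of 0.02. The VSD difference of 0.0047 had a 95% interval of -0.06 to 0.07 (limma unadjusted p = 0.873, Benjamini-Hochberg adjusted p = 0.979; exact permutation p = 0.873). At a level near 200 normalized counts, where a doubling moves VSD by 0.27, this interval is narrow, but the p does not show that the groups were equal.

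Fos and Jun were then set against each other inside each library, which removes the library's scaling. Only this pair was tested, with earlier results of these data known, and it joins the members with the largest and the smallest difference. The result is therefore not independent of that for Fos. Nor does it compare the Fos side with the Jun side, since Junb was 1.38-fold higher and Fosl2 1.27-fold. The log2 ratio of Fos to Jun, each with 1 normalized count added, averaged -0.06 ± 0.93 in Sham (range -2.08 to 0.71) and 0.82 ± 0.27 in HF-HI (range 0.27 to 1.20). The ratio of 7 HF-HI libraries lay above that of every Sham library. Per kilobase of transcript, which is the scale for comparing levels of different genes, Fos exceeded Jun in 8 of 8 HF-HI and 6 of 7 Sham libraries. The group difference was 0.88 (exact two-sided permutation p = 0.00218). Sham 2, with a ratio of -2.08, carried part of this size. Without it the difference was 0.54 (exact permutation p = 0.00599). Among libraries with a size factor above 1 (6 Sham, 3 HF-HI) the difference was 0.86 and was not called (exact permutation p = 0.190).

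**Figure D2:**
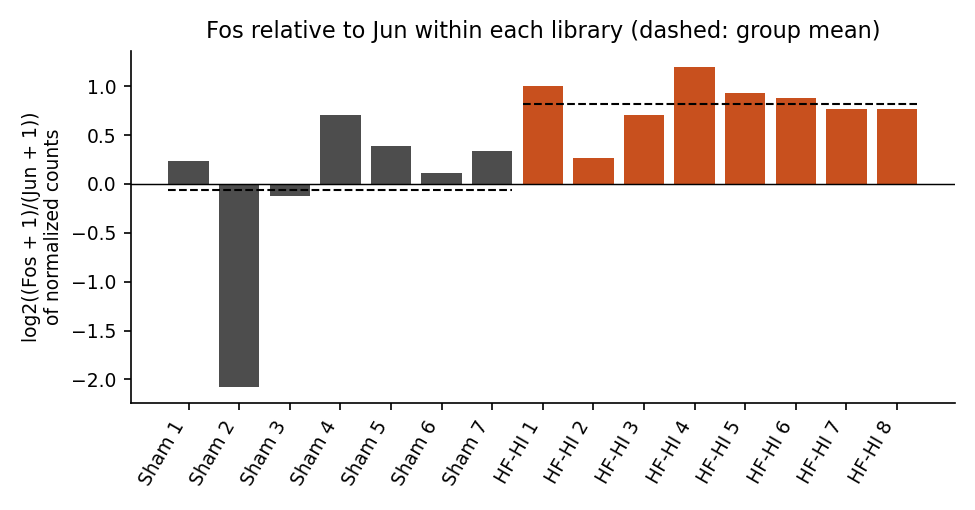
Bars give log2((Fos + 1)/(Jun + 1)) of normalized counts in each library, Sham in grey and HF-HI in orange, and dashed lines mark the group means of -0.06 and 0.82. All HF-HI bars are above 0, and the lowest Sham bar, Sham 2, is at -2.08.

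Levels of different genes were compared per kilobase of transcript. Junb was highest in all 15 libraries, at 212 ± 62.9 normalized counts per kb in Sham and 293 ± 81.3 in HF-HI. Fos followed at 112 ± 41.3 and 190.5 ± 40.7, then Jun at 69.9 ± 9.68 and 71.1 ± 13.1, and Fosl2 at 50.6 ± 11.9 and 64.0 ± 9.29. The order Junb, Fos, Jun, Fosl2 held in 5 Sham and 5 HF-HI libraries. Jun and Fosl2 changed places in 1 Sham and 3 HF-HI libraries, and their ranges overlapped in both groups. In Sham the overlap came from Sham 5, without which Jun was 64.6 to 85.1 per kb and Fosl2 37.2 to 63.1. The difference between these neighbours within libraries was not tested. In HF-HI, Fos (141 to 275 per kb) lay wholly above Jun (54.4 to 90.8). In Sham, Fos reached down to 27.6 per kb in Sham 2, the single library with Fos in last place, and in the other 6 Sham libraries Fos (110.5 to 160) also lay wholly above Jun (55.9 to 85.1 in Sham). Of the summed level per kb of the 4 transcripts, Fos made up 24.4% ± 7.08 in Sham and 30.9% ± 2.45 in HF-HI, Jun 16.5% ± 5.21 and 11.7% ± 1.98, Junb 47.3% ± 6.55 and 46.8% ± 3.90, and Fosl2 11.8% ± 3.68 and 10.6% ± 1.65. The shares are tied to each other, since they add up within a library, and were not tested.

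The members also varied between animals of a group. The coefficient of variation of Junb was 29.6% in Sham and 27.7% in HF-HI, that of Fos 37.0% and 21.4%, and that of Jun 13.8% and 18.5%. For Fos these rested on 1 library in each group: it was 15.8% in Sham without Sham 2 and 13.3% in HF-HI without HF-HI 1. Fosl2 had 23.6% in Sham and 14.5% in HF-HI. Counting alone would give between 4.64% and 7.43% for these transcripts, from 63 to 810 reads per library. The residual SD of VSD was exceeded by 11.3% of all transcripts for Fos, 9.83% for Junb, 26.4% for Fosl2 and 44.1% for Jun.

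With the group means removed, Fos and Junb moved together across the 15 libraries. Pearson's r of VSD was 0.681 (permutation p = 0.00246) and Spearman's rho was 0.714 (permutation p = 0.00659), with Benjamini-Hochberg values of 0.0148 and 0.0395 over the 6 pairs of members. Without the 2 libraries farthest from the median of Fos, Sham 2 and HF-HI 1, r was 0.605, and it was 0.601 within Sham and 0.865 within HF-HI. Fos and Fosl2 had r = 0.574 (permutation p = 0.0479) and rho = 0.50 (permutation p = 0.0758), with adjusted values of 0.144 and 0.227. Without the same 2 libraries r was 0.346, so its size depended in part on them. Within Sham r was 0.556 and within HF-HI 0.618, each group still holding 1 of these libraries. The other 4 pairs had r between -0.129 (Fosl2 and Jun) and 0.442 (Jun and Junb), with adjusted permutation p of 0.234 to 0.800. Fosl2 and Junb had r = 0.148, and 0.528 without Sham 5 and HF-HI 6. Fosl2 and Jun had r = -0.751 within Sham and 0.436 within HF-HI, and this difference was not tested.

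The transcripts of other genes most like each member were found by the same correlation over 15 libraries, as a description. For Fos they were Dusp1 (r = 0.864) and Dusp6 (0.850), phosphatases that switch off MAP kinases, and Tiparp (0.840), an ADP-ribosyltransferase. Junb led with Tiparp as well (0.787), followed by Map1lc3a (0.785) and Elob (0.775). Junb was number 42 in the order of likeness to Fos, Fosl2 number 120 and Jun number 4056. The leading transcripts for Fosl2 were Tnfrsf21 (0.817), Kcna3 (0.808) and Sgsm1 (0.805). For Jun they were Anks1b (0.895), Gcn1l1 (0.861) and Ccar2 (0.859). No transcript was among the leading 3 of both Fos and Jun.

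Short-lived mRNAs often carry the letters ATTTA in their 3′ untranslated region, where proteins of the Zfp36 group bind. Fos held 4 in 815 bases, or 4.91 per kb, and 6.00% of 9434 transcripts held at least as many per kb. Junb held 2 in 485 bases (4.12 per kb, 9.37%), Jun 4 in 1233 bases (3.24 per kb, 17.8%) and Fosl2 8 in 4653 bases (1.72 per kb, 44.5%). The median over all these transcripts was 1.47 per kb. By number in place of density, 14.6% of transcripts held at least as many as Fosl2, 36.4% as Fos or Jun and 57.6% as Junb. The nonamer TTATTTATT occurred once each in Fos and in Fosl2 and was not among the letters of Jun and Junb, and 9.08% of transcripts held it. The density of ATTTA thus ran Fos, Junb, Jun, Fosl2, whereas the log2 ratio ran Fos, Junb, Fosl2, Jun.

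The genes around AP-1 were grouped in 6 lists with 115 genes, of which 80 had a measured transcript, 122 transcripts in all. The lists were written with earlier results of these data known, so counts in them describe and do not test. At a limma unadjusted p under 0.05, 23 of the 122 were higher and 6 lower in HF-HI, against 4.94% higher and 3.9% lower over all transcripts. The closest family members, here called AP-1 relatives, had 1 of 17 transcripts higher and none lower, with a median VSD difference of 0.0018, and this share (5.88%) is near the 4.94% of all transcripts. Leaving out 1 library gave 1 to 3 called, with 3 without Sham 2, Sham 5 or HF-HI 7, and depth as a covariate or reads summed per gene gave 0. The called transcript belonged to Nfe2l1 (ENSMUST00000081775), a CNC factor of the proteasome response, which had 577 ± 187 normalized counts in Sham, against 758 ± 81.7 in HF-HI (limma unadjusted p = 0.0188). Another Nfe2l1 transcript (ENSMUST00000167149) had a log2 ratio of -0.43 (limma unadjusted p = 0.0958), and the split of reads between transcripts of a gene is an estimate. Jund, the Jun-side partner that neurons express steadily, had 218 ± 61.7 and 189 ± 50.01 normalized counts (limma unadjusted p = 0.316). Bach1, a repressor of heme oxygenase, had a log2 ratio of 0.18 (limma unadjusted p = 0.0569). Of 5 transcripts of Atf2, a JNK and p38 substrate that pairs with Jun, none was called: ENSMUST00000112016 had a log2 ratio of 0.18 (limma unadjusted p = 0.0972) and ENSMUST00000055833 one of -0.48 (limma unadjusted p = 0.113). Fosb, Fosl1, Atf3 and 9 other genes of this list were not analysed here.

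Among the upstream transcription factors, which bind or co-activate at Fos and Jun promoters, 2 of 16 transcripts were higher and 2 lower, with a median of 0.0165 in VSD, against 4.94% higher and 3.9% lower over all transcripts. The count of 4 fell to 1 without Sham 2, with voom on reads or in libraries with a size factor above 1, to 2 without Sham 1, HF-HI 1 or HF-HI 4, and to 0 with depth as a covariate. Stat3, the factor of cytokine signaling, had 249 ± 7.28 normalized counts in Sham, against 275 ± 17.5 in HF-HI, higher than the Sham median in 8 of 8 libraries (limma unadjusted p = 0.0119). Creb1, the factor of the cAMP response element, was called in opposite directions: ENSMUST00000087366 had a log2 ratio of -0.64 (limma unadjusted p = 0.0268) and ENSMUST00000049932 one of 0.60 (limma unadjusted p = 0.0479). Mef2a, which binds MEF2 sites, had 1453 normalized counts in Sham, against 1324 in HF-HI (limma unadjusted p = 0.0497).

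The upstream kinases are those of the MAP kinase cascades, among them JNK and p38, and the kinases that phosphorylate CREB. Of their 42 transcripts, 6 were higher and 2 lower, with a median of -0.0153, against 4.94% higher and 3.9% lower over all transcripts. The smallest p belonged to Mapk9, which encodes JNK2, a kinase of Jun. The transcript concerned (ENSMUST00000020634, 1 of 4 measured) held 1108 ± 79.4 normalized counts in Sham, against 930 ± 91.6 in HF-HI, and none of the 8 HF-HI libraries reached the Sham median (log2 ratio -0.25, limma unadjusted p = 8.8e-04, Benjamini-Hochberg adjusted p = 0.287). Another Mapk9 transcript (ENSMUST00000102778) was called in the opposite direction, at 360 ± 66.5 and 454 ± 88.7 (log2 ratio 0.33, limma unadjusted p = 0.0276). The list had 2 of 24 genes called when reads were summed per gene, 4 of its transcripts in libraries with a size factor above 1 or without the high-Ttr libraries described below, and 5 without HF-HI 4 or with depth as a covariate. Nras had a log2 ratio of -0.12 (limma unadjusted p = 0.0197).

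Genes that remove AP-1 mRNA or protein had 0 of 14 transcripts higher and 1 lower (7.14% called, against 8.83% of all transcripts), with a median of -0.0136. The lower one was 1 of 4 transcripts of Fbxw7, which marks phosphorylated Jun for degradation. This transcript (ENSMUST00000029727) stood at 643 ± 67.6 and 557 ± 61.4 normalized counts (limma unadjusted p = 0.0160), while the most abundant Fbxw7 transcript (ENSMUST00000107675) stood at 1122 ± 166 and 1156 ± 151 (limma unadjusted p = 0.648). With reads summed per gene, with depth as a covariate or without the high-Ttr libraries none of this list was called, and leaving out 1 library gave 1 to 3. Itch, another ubiquitin ligase of Jun and Junb, had transcripts at log2 ratios of 0.50 (limma unadjusted p = 0.0531) and -0.58 (limma unadjusted p = 0.0699). Cop1 had -0.08 (limma unadjusted p = 0.126). Zfp36 and Zfp36l1 were not analysed here.

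Genes known as AP-1 targets had 0 of 10 transcripts higher and 1 lower (10% called, against 8.83% of all transcripts), with a median of -0.0334. None was called without Sham 3, HF-HI 1 or HF-HI 3, and 3 were with depth as a covariate or with reads summed per gene. Penk, the proenkephalin gene, held 877 ± 160 normalized counts in Sham, against 712 ± 133 in HF-HI, and 0 of 8 HF-HI libraries exceeded the Sham median (limma unadjusted p = 0.0346). Penk is also strongly expressed in striatum. Of 13 transcripts of striatal projection neuron markers 2 were lower in HF-HI, against 3.9% of all transcripts. The summed levels of these markers were 6346 to 9606 normalized counts in Sham, against 4395 to 9213 in HF-HI. The part of these in the Penk value was not tested. Vgf, a neuropeptide precursor, had a log2 ratio of -0.21 (limma unadjusted p = 0.0532), Ccnd1 (cyclin D1) -0.13 (limma unadjusted p = 0.0671) and Scg2 (secretogranin II) -0.07 (limma unadjusted p = 0.143).

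The list of other immediate early genes, such as Arc and the Nr4a receptors, held 14 of the 29 called transcripts of the 6 lists. Of 23 transcripts, 14 were higher (60.9%, against 4.94% of all transcripts) and 0 lower, with a median VSD difference of 0.0986 and a median log2 ratio of 0.46. Because the list was written with earlier results of these data known, this share is a description and not a test. In libraries with a size factor above 1, 8 were called, and leaving out 1 library gave 14 to 15. Nr4a3, an orphan nuclear receptor, had 157 ± 37.96 normalized counts in Sham, against 291 ± 65.8 in HF-HI (limma unadjusted p = 8.8e-05). Arc (ENSMUST00000110009), whose protein acts at dendritic spines, had 603 ± 200 and 1132 ± 224.5 (limma unadjusted p = 2.3e-04). The more abundant Arc transcript (ENSMUST00000023268) had 1292 ± 510 and 2067 ± 358 (log2 ratio 0.68, limma unadjusted p = 0.00337). Dusp5, a nuclear phosphatase of MAP kinases, had 103 ± 18.1 and 144 ± 14.6 (limma unadjusted p = 4.7e-04), and Sik1, a kinase that restrains CREB co-activators, had 114 ± 23.1 and 168 ± 24.5 (limma unadjusted p = 6.0e-04). The Sham median was exceeded by all 8 HF-HI libraries in Nr4a3, Arc (ENSMUST00000110009), Dusp5 and Sik1. These 4 transcripts had the smallest p of the list and log2 ratios of 0.49 to 0.91, against 0.77 for Fos. They were picked by p, so these ratios do not stand for the list. Its median of 0.46 was near the 0.47 of Junb. The difference between Fos or Junb and the genes of this list was not tested.

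**Figure D3:**
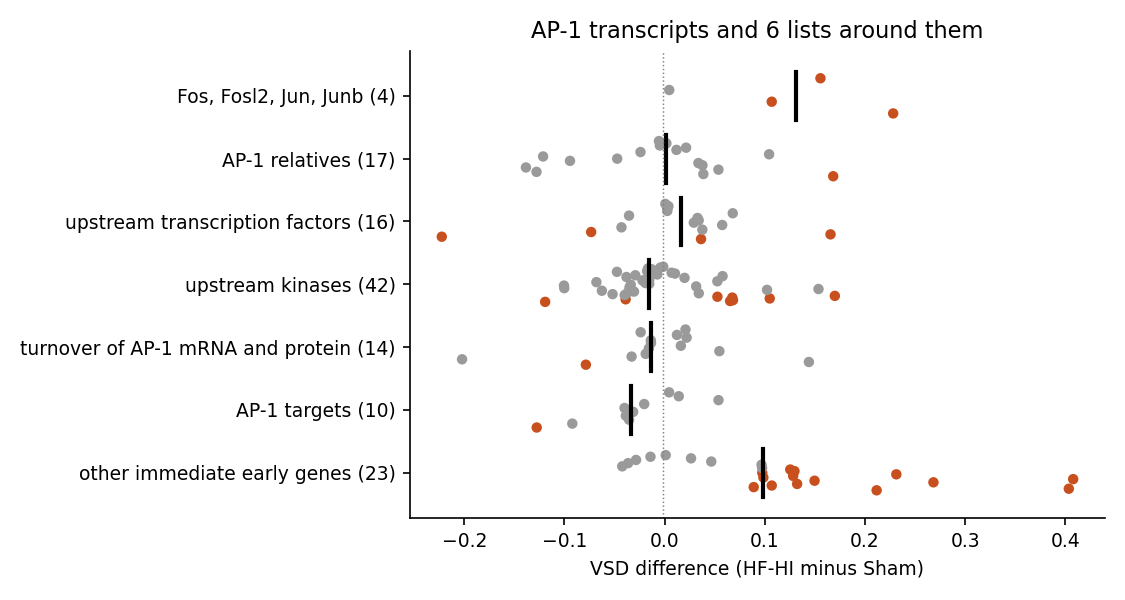
Each point is a transcript, placed by its VSD difference (x axis, HF-HI minus Sham), for the 4 AP-1 members and the 6 lists, with the number of transcripts in parentheses. Orange points had a limma unadjusted p under 0.05 and black lines are medians, which lie at 0.13 for the members, 0.0986 for the other immediate early genes and between -0.0334 and 0.0165 for the other lists.

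Several features of the libraries are set beside these values. Size factors, which follow sequencing depth, were 0.818 to 1.47 in Sham and 0.501 to 1.22 in HF-HI, a log2 difference of -0.55 (exact permutation p = 0.0280). HF-HI libraries with a size factor above 1 had a mean Fos of 352 (n = 3) and the others 432 (n = 5). The others include HF-HI 1, which held 580 at a size factor of 0.984, just under the limit. HF-HI 4, HF-HI 7 and HF-HI 2, at size factors of 0.501, 0.585 and 0.650, held 427, 373 and 343. Among libraries with a size factor above 1 (6 Sham, 3 HF-HI), the Fos difference was 0.18 in VSD, the Fosl2 difference 0.06 and the Junb difference 0.13, with limma unadjusted p of 0.0944, 0.323 and 0.208, so none was called there. With the log2 size factor as a covariate over all libraries the differences were 0.24, 0.12 and 0.18, with limma unadjusted p of 0.00775, 0.0243 and 0.0450.

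**Figure D4:**
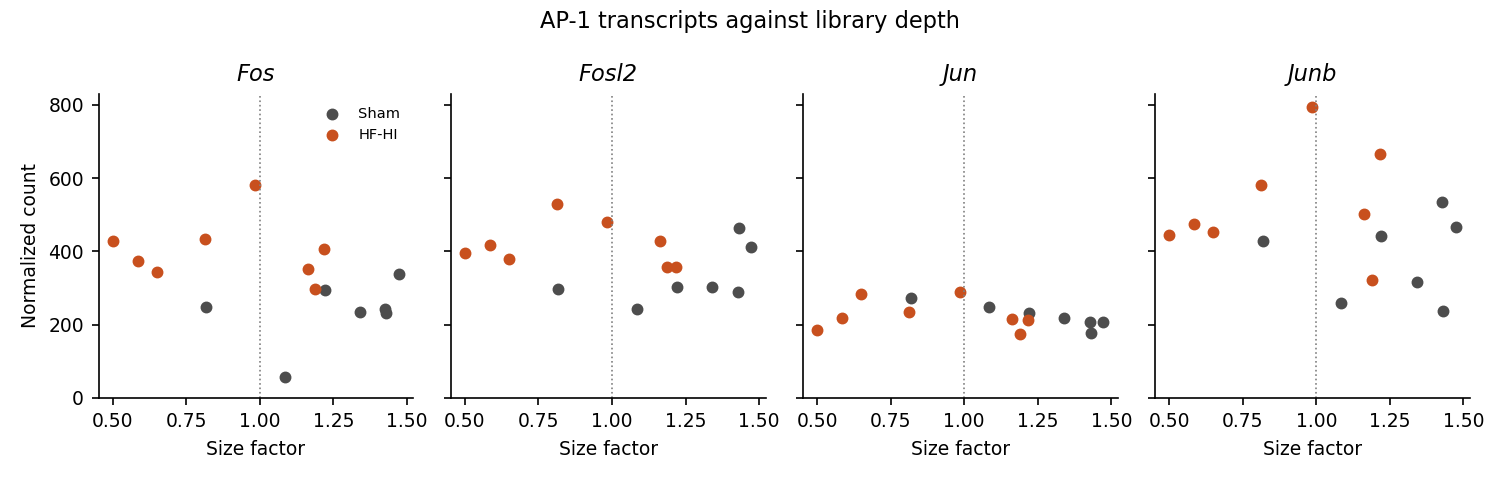
Normalized counts (y axis) of each AP-1 transcript against the size factor of the library (x axis), Sham in grey and HF-HI in orange, with a dotted line at a size factor of 1. HF-HI libraries lie further to the left, and Fos in HF-HI reached 296 to 408 right of the line and 343 to 580 left of it. The value of 580 is that of HF-HI 1, at a size factor of 0.984.

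Ttr, the one choroid plexus marker of 4 that was measured, exceeded 1000 normalized counts in Sham 1, Sham 2, HF-HI 2 and HF-HI 5 and was between 21.0 and 176 in the other libraries. Without these 4 libraries the VSD differences were 0.17 for Fos, 0.09 for Fosl2 and 0.15 for Junb, with limma unadjusted p of 0.00506, 0.0584 and 0.0769. All 6 markers listed for excitatory cortical neurons and all 5 for inhibitory neurons were measured. In the first list 1 of 10 transcripts was higher, against 4.94% of all transcripts, and in the second 0 of 6 were called. Summed levels of the first list were 21722 to 24019 normalized counts in Sham, against 23205 to 26472 in HF-HI. Those of the inhibitory list were 5290 to 5928 and 4832 to 5890. The first list includes Snap25 and Rbfox3, which are not particular to excitatory neurons. Of its sum, 1 Snap25 transcript (ENSMUST00000028727) held 12774 to 15763 in Sham and 14428 to 16980 in HF-HI, so the sum does not measure excitatory neurons alone. Of the microglial markers 1 of 3 transcripts was lower, against 3.9% of all transcripts. None was called among the markers of astrocytes (4), oligodendrocytes (13), endothelium (3) and blood (4). HF-HI 2 stood apart on the first principal component (14.3% of variance, 12.6 against -3.35 to 0.721 for the others). Without both HF-HI 2 and Sham 2 the VSD difference was 0.18 for Fos and 0.14 for Junb, with limma unadjusted p of 0.000959 and 0.0734. The part of depth, choroid plexus or single libraries in the AP-1 differences beyond these values was not tested.

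**Figure D5:**
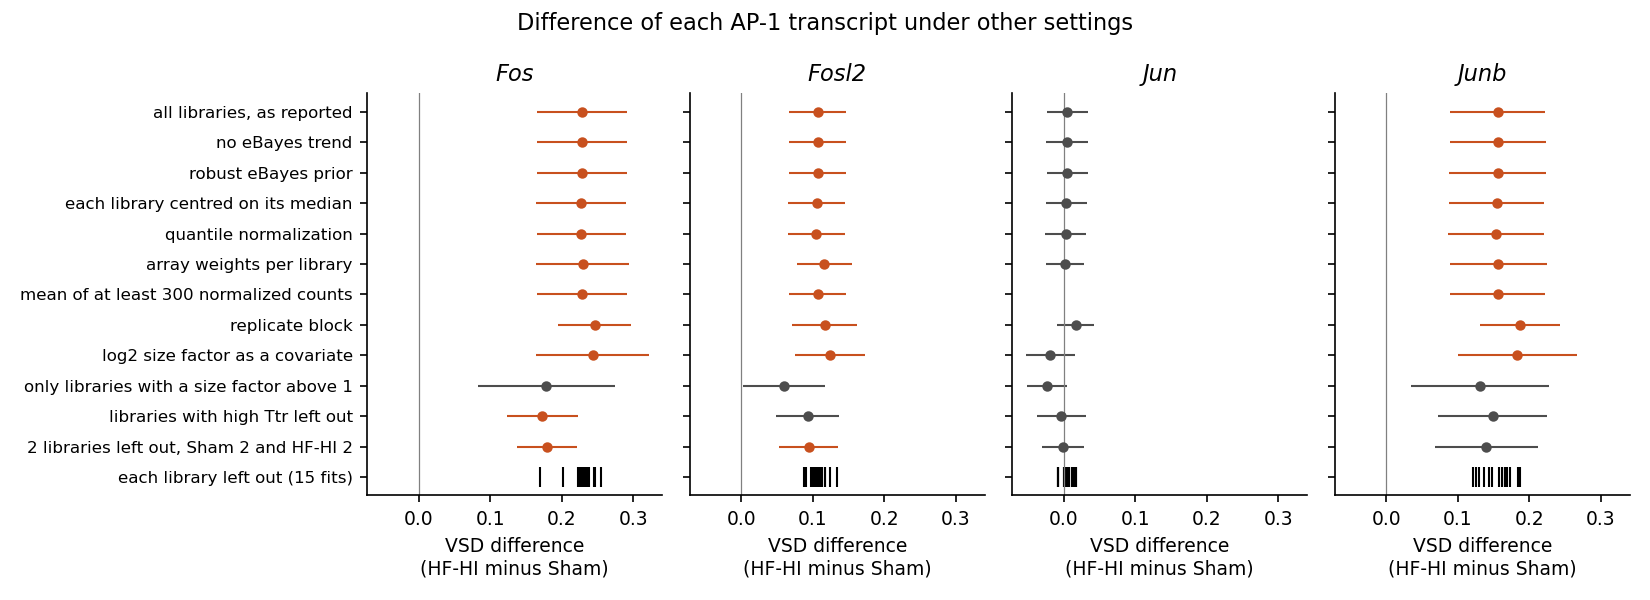
VSD difference of each AP-1 transcript (x axis, HF-HI minus Sham) with its SE under the settings named at the left, in orange where the limma unadjusted p was under 0.05, and with a tick for each of 15 fits that leave out 1 library. Fos, Fosl2 and Junb stay above 0 in every setting drawn, while Jun lies on both sides of 0.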

How the data were processed

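The authors extracted RNA with TRIzol, depleted ribosomal RNA, made stranded libraries, aligned paired reads to mm10 with STAR, estimated counts per transcript with eXpress and transformed them with DESeq2, which also removed outliers of low mean by Cook's distance. The deposited values are these variance-stabilized log2 values (VSD) for 10370 transcripts in 15 libraries. The annotation release was not given in the sources used here, and GENCODE M21 was used, which left 129 transcripts without an entry.

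VSD was inverted to normalized counts. In each library 1 step divided every value (100%) into whole reads within 0.1 reads, which gave reads and size factors. The lowest mean was 108 normalized counts, so rarer transcripts were not analysed here. Intervals cover counting error only.

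HF-HI was compared with Sham on VSD with limma 3.58.1 (R 4.3.3), with group as the only term, eBayes with trend, two-sided tests and Benjamini-Hochberg adjustment over all transcripts at 0.1. Because none passed, an unadjusted p under 0.05 is used to describe. Single values were tested by exact permutation. The members and lists were chosen with earlier results of these data known. From each list the 4 transcripts with the smallest unadjusted p are named, plus Jund, except 2 that are not reported here, and for likeness the leading 3. On simulated counts for 10370 transcripts, 139 of 200 changed by 0.5 (log2) passed the adjusted threshold, with 19 false calls, and 181 of 200 changed by 1, with 31 false calls. The changed transcripts were drawn at random, and counts were independent between transcripts, with no library standing apart. These numbers therefore do not apply to Fos or Junb, whose residual SD was exceeded by only 11.3% and 9.83% of transcripts. Alternatives covered the prior, scaling, filters, depth, weights, a replicate block, the scale tested, summing per gene and each library left out. Leaving out the 4 libraries with high Ttr, or both Sham 2 and HF-HI 2, and giving spreads within a group without 1 library, were chosen after seeing the data. Other tools were Python 3.11.15, numpy 2.4.6, scipy 1.17.1 and pandas 2.3.3.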

Additional observations from a re-analysis of the deposited data

Results flagged for a closer look

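Among 10 sets of values (each member and the ratio of Fos to Jun, in each group), Dixon's criterion singled out 1 library in 2 of them, both times Sham 2. Its Fos value was 58.1 normalized counts, and the gap to the next Sham library was 0.626 of the Sham range, above the critical value of 0.568. Its log2 ratio of Fos to Jun was -2.08, with a gap of 0.703 of the range. Both values share the same Fos reads, so they are not separate events, and by chance about 5% of such sets would be singled out. Sham 2 was also the lowest Sham library in 17 of 23 transcripts of the other immediate early genes (73.9%), against 13.9% of all transcripts, and it was 1 of the 4 libraries with high Ttr.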

How the results depend on the processing

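Fos kept its direction in all 31 alternatives and its call in 30, Fosl2 its call in 29 and Junb in 22. In libraries with a size factor above 1, the VSD differences were 0.18 (Fos), 0.060 (Fosl2), 0.13 (Junb) and -0.024 (Jun), with 0 members, 541 transcripts and 19 list transcripts called, 1 transcript under the adjusted threshold, and a Fos to Jun difference of 0.86 (exact permutation p = 0.190). This setting has 9 libraries. The depth covariate gave -0.019 for Jun and 533 transcripts. A mean of at least 300 normalized counts, which tests fewer transcripts and not Jun, gave 525 transcripts and 17 in the lists, and reads summed per gene gave 18 in the lists. Without high-Ttr libraries the values were 0.093 (Fosl2), 0.15 (Junb) and -0.0035 (Jun), with 1 member called. Without Sham 2 and HF-HI 2 they were 0.14 (Junb) and -0.00093 (Jun), with 1 transcript under the adjusted threshold. Leaving out 1 library gave 0.17 to 0.25 (Fos), 0.088 to 0.13 (Fosl2), -0.0087 to 0.017 (Jun, below 0 without Sham 5, HF-HI 1 or HF-HI 2), 0.12 to 0.19 (Junb), 2 to 3 members, 748 to 987 transcripts, 0 to 1 under the adjusted threshold, 24 to 31 in the lists, and 0.54 to 1.01 for Fos to Jun. Animals with the same replicate number share only a number (correlation of deviations -0.138 to 0.0905). With a replicate block the differences were 0.25 (Fos), 0.12 (Fosl2), 0.02 (Jun) and 0.19 (Junb), 0.88 for Fos to Jun, and no member call changed. Where no value is given beside a setting, the cause of a change was not tested.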
